A study of Caenorhabditis elegans with 2 samples.

Results

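The genes described here are 9 tubulin genes of Caenorhabditis elegans, out of 19985 protein-coding genes in the annotation, and what is described is the binding of the protein ZK546.5 around their 5′ ends. They were taken as a list of symbols: the alpha-tubulin genes tba-1, tba-2, tba-4 and mec-12, the beta-tubulin genes tbb-1, tbb-2, tbb-4 and mec-7, and the gamma-tubulin gene tbg-1. All 9 were found in the annotation. Binding was measured by chromatin immunoprecipitation and sequencing (ChIP-seq) in whole L4 larvae (the last larval stage) of strain OP231, with 2 biological replicates. This strain carries the unc-119(ed3) mutation on chromosome III and the integrated transgene wgIs231, from which ZK546.5 is made with GFP and FLAG at its C-terminal end. The larvae were of mixed sex, and the labels give neither their age in hours nor the promoter that drives the transgene. Both replicates belong to a single group, so no second strain, stage or treatment could be compared and no test over samples could be made.

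Microtubules are built from dimers of alpha- and beta-tubulin, and gamma-tubulin sits in the complexes from which they are nucleated. In C. elegans tba-1, tba-2, tbb-1 and tbb-2 are expressed broadly and supply the microtubules of dividing embryonic cells. The other genes include neuronal forms. mec-12 and mec-7 encode an alpha- and a beta-tubulin of the touch receptor neurons, which sense gentle touch. tbb-4 encodes a beta-tubulin of ciliated sensory neurons. Whole larvae were used, so few cells with strong binding and many cells with weak binding cannot be told apart.

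The values came from 4 peak lists in the ce11 genome build. The pooled list and the list of each replicate held 30000 peaks each. The reproducible list, which the authors label as optimal and thresholded by IDR, held 304. IDR is the irreproducible discovery rate, set by the agreement of ranks between peak lists. The lists of 30000 are labelled by the authors as peaks and background, so their weaker entries need not be binding sites. Each peak has a summit, its position of highest signal, and a signal value given by the authors, by which peaks were ranked within their list. Signals were not compared between lists because their scaling is not stated, and the depth is unknown because the lists hold no read numbers. A gene was counted as near a peak when a summit lay within 1000 bp of any of its annotated 5′ ends. Agreement between replicates depended on rank: 90.5% of the 304 strongest pooled peaks had a summit within 100 bp in both replicate lists, but 5.58% of those ranked 10001 to 20000 and 1.67% of those ranked 20001 to 30000 did.

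Of the 9 tubulin genes, tba-2 alone was near a reproducible peak, and that peak was among the strongest of the experiment. The gene, WBGene00006529, encodes a broadly expressed alpha-tubulin and lies on the minus strand of chromosome I at 12964674-12966795. Its peak at I:12966702-12967171 had a signal value of 1016 in the pooled list, where it ranked 3 of 30000. It ranked 4 in replicate 1, with a signal of 533, and 4 in replicate 2, with a signal of 482. These signals were 99.1 times the median peak of the replicate 1 list and 69.3 times that of the replicate 2 list. The rank was thus the same in both replicates. Summits of the pooled, replicate 1 and replicate 2 lists lay 140, 142 and 138 bp upstream of the 5′ end, a spread of a few bases, in the intergenic gap of 420 bp that separates tba-2 from the end of pbs-2, a proteasome subunit gene. No other annotated 5′ end lay within 1000 bp of the pooled summit, so the peak had tba-2 as its single candidate gene by this distance. At 470 bp the peak was wider than the median reproducible peak of 344 bp, and 2 reproducible peaks were wider. Its neighbours in the pooled order were the peak of rank 2, nearest to wwp-1 (signal 1250, 251 bp from its 5′ end), and the peak of rank 4, nearest to hsr-9 (1006, 163 bp).

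Weaker peaks stood on either side of the tba-2 promoter and were assigned to other genes. A reproducible peak of rank 121 with a pooled signal of 57.5 lay 1810 bp upstream, between pbs-2 (325 bp away) and eif-6, a translation initiation factor gene (341 bp). Another of rank 180 with a signal of 41.9 lay 59 bp inside the 5′ end of C47B2.2, the next gene downstream of tba-2 on the same strand. Both replicates held them, at ranks 169 and 223 in replicate 1 and 190 and 327 in replicate 2. Within the tba-2 gene, which has 2 annotated 5′ ends, a low peak was placed in a coding exon, 593 bp downstream of the nearer, internal end. It ranked 4051 in the pooled list with a signal of 15.3, then 17097 (5.05) in replicate 1 and 14241 (7.11) in replicate 2, close to the median signals of those lists, which were 5.38 and 6.95.

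**Figure D1:**
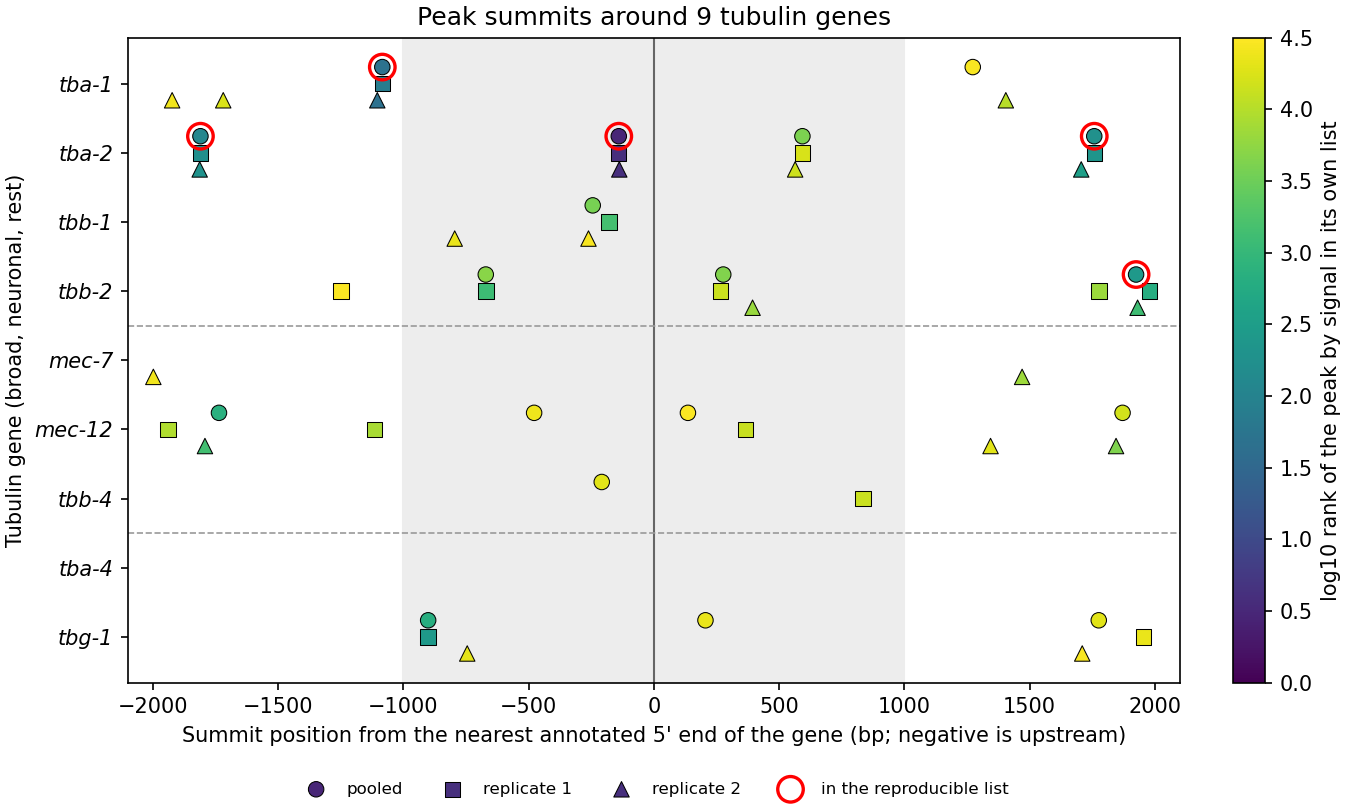
Summits within 2000 bp of the annotated 5′ ends of the 9 tubulin genes: the x axis gives the position from the nearest 5′ end of the gene in bp, the rows are genes, marker shapes are the lists, and colour gives the log10 rank of the peak within its list. Red rings mark peaks of the reproducible list, and the grey band is the distance of 1000 bp used for counting: the ringed peak at tba-2 with rank 3 is the single ringed peak inside it.

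The other broadly expressed alpha-tubulin gene, tba-1, had a strong peak just beyond the distance limit. tba-1 (WBGene00006528) lies on the minus strand at I:9785781-9787624, and no summit of any list was within 1000 bp of its 5′ ends. A reproducible peak of pooled rank 49 and signal 118 had its summit 1084 bp upstream. The replicate lists placed it 1084 bp upstream at rank 77 (signal 53.1) in replicate 1 and 1104 bp upstream at rank 45 (63.3) in replicate 2. That summit was 17 bp from the 5′ end of cox-5B, which encodes a subunit of cytochrome c oxidase and is transcribed away from tba-1, with 1101 bp between the 5′ ends of both genes. The non-coding RNA genes F26E4.16 and F26E4.14 also had 5′ ends within 1000 bp of it, at 513 and 538 bp. The distance limit therefore separates a tubulin gene whose own promoter holds the summit, at 140 bp, from one whose nearest strong summit sits at the start of a neighbour. Inside tba-1, which has 2 annotated 5′ ends, a coding-exon summit 1273 bp downstream of the nearer, internal end had rank 29109 in the pooled list.

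The broadly expressed beta-tubulin genes had weak peaks within 1000 bp, none of them reproducible. At tbb-1 (WBGene00006536, minus strand, III:10740868-10742432) the pooled summit lay 244 bp upstream with rank 3851 and signal 15.5. Replicate 1 had it at rank 1445 (11.4), 179 bp upstream, and replicate 2 at rank 29070 (4.87), 261 bp upstream. The peak of replicate 2 was thus among the weakest of its list, below the list median, though its summit was 17 bp from the pooled one. A separate replicate 2 summit, 795 bp upstream inside an intron of rib-2, ranked 22573 (5.70). rib-2, a gene for heparan sulfate synthesis, is transcribed in the opposite direction with 378 bp between the 5′ ends, and its start was nearer to the pooled summit (134 bp).

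At tbb-2 (WBGene00006537, minus strand, III:4015910-4017627) the replicates differed in which place was stronger. A pooled summit 277 bp downstream of the 5′ end, in a coding exon of tbb-2, ranked 4417 with a signal of 14.9. Its counterpart in replicate 1 ranked 13668 (5.61, 265 bp), and the nearest in replicate 2 ranked 6295 (9.48, 394 bp), which was 117 bp from the pooled summit. The other pooled summit, 671 bp upstream in the exon of C36E8.10, a non-coding RNA gene, ranked 5035 (14.4). Replicate 1 held it at rank 1219 (11.9), and replicate 2 had no summit within 1000 bp of that place, its nearest being 1065 bp away. The strongest peak in the neighbourhood was a reproducible one of rank 260 (34.3), 1925 bp downstream of the tbb-2 start. It lay beyond the end of tbb-2, in a coding exon of C36E8.4, a gene that runs towards tbb-2 from the other strand, and the nearest 5′ end was that of a piRNA gene, 21ur-13952.

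The sequence around the tbb-1 summit is shown because tbb-1 was, besides tba-2, the single tubulin gene with a pooled summit within 1000 bp that both replicates matched within 100 bp. It covers 200 bp at III:10742576-10742775 on the minus strand, 5′ to 3′ towards tbb-1, from the RefSeq WBcel235 genome. Capitals mark matches on either strand to fixed words. The first is GTGCGC, the reverse complement of GCGCAC, centred 39 bp from the summit on the rib-2 side. GCGCAC was chosen because earlier results of these data showed it at strong peaks. The other is CCAAT, the binding word of the NF-Y factor, 23 bp from the summit on the tbb-1 side.
tbb-1: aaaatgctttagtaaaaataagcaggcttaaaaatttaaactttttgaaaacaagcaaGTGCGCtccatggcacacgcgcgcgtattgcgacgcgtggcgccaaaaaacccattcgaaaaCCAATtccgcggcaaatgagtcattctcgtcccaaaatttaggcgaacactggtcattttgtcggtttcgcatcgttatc

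The neuronal tubulin genes had no reproducible peak within 1000 bp, and no summit there ranked among the 10000 strongest of its list. At tbb-4 (WBGene00006538, minus strand, X:9434452-9436893) the pooled summit was 208 bp upstream, with rank 20030 and signal 9.17. Replicate 1 had a summit at another place, 834 bp downstream in an intron (rank 13844, 5.57), and replicate 2 had none within 1000 bp, its nearest being 4549 bp away. At mec-12 (WBGene00003175, minus strand, III:3131574-3139234) pooled summits lay 478 bp upstream (rank 24596, 8.29) and 136 bp downstream in an intron (rank 29771, 7.46). Replicate 1 had a summit 365 bp downstream (rank 13032, 5.73) and replicate 2 none within 1000 bp. None of the 3 pooled summits at tbb-4 and mec-12 had a partner within 100 bp in either replicate list.

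mec-7 (WBGene00003171, minus strand, X:7774856-7776689) had no summit within 1000 bp in any list. Its nearest pooled summit was 2032 bp away and ranked 23412, and replicate 2 placed one 1470 bp downstream in a coding exon at rank 6879 (9.23). Farther from mec-12 a stronger peak was found 1736 bp upstream, with pooled rank 705 and signal 23.2. It had rank 1386 (13.5) in replicate 2, 56 bp from the pooled summit, while the nearest summit in replicate 1 was 204 bp away at rank 9355 (6.54). The nearest reproducible summits were 28945 bp from the tbb-4 start, 71134 bp from that of mec-12 and 259736 bp from that of mec-7.

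The 200 bp before the annotated 5′ ends of mec-7 and mec-12 are shown as stretches without a summit in any list, since each holds a word that bears on its known expression or on promoters in general. Both are on the minus strand and read 5′ to 3′ towards the gene, at X:7776690-7776889 and III:3139235-3139434, from the RefSeq WBcel235 genome, and capitals again mark the fixed words. In mec-7, ATGCATT is the reverse complement of AATGCAT, the core of the site bound by UNC-86 and MEC-3, the factors that specify touch receptor neurons. It is centred 126 bp upstream of the start, and the same word is in 2.75% of the 200 bp upstream windows of all protein-coding genes. In mec-12, the capitals near the end join GAGAGA with the reverse complement of TGCGTCTC, a word chosen because earlier results of these data showed it at strong peaks. These matches share 4 bases and are centred 24 and 21 bp upstream. TGCGTCTC is in 2.58% of promoter windows and in 11.8% of windows at reproducible summits. No list had a summit in this mec-12 window, but the weak pooled peak of rank 29771, at III:3138926-3139269, covers the word. Its summit lies 136 bp downstream of the 5′ end.
mec-7: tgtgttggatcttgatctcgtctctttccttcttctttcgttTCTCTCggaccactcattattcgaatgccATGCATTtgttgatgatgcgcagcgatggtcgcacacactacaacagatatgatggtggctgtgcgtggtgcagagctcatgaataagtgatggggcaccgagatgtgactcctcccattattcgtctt
mec-12: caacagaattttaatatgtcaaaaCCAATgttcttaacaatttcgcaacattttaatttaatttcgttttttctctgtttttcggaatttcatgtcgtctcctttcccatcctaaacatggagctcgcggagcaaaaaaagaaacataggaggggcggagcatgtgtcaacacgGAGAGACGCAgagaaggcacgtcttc

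The remaining pair of genes had opposite patterns. At tba-4 (WBGene00006530, plus strand, II:10918706-10920211), a further alpha-tubulin gene, no list had a summit within 2000 bp, and the nearest pooled summit was 2017 bp away at rank 27723. tbg-1 (WBGene00006540, minus strand, III:9626536-9629154), the gamma-tubulin gene, had the highest rank after tba-2 among pooled summits within 1000 bp, and the replicates differed on it. Its pooled summit 901 bp upstream had rank 670 and signal 23.6. Replicate 1 held the same summit position at rank 259 (20.5), within its 304 strongest peaks, whereas the nearest summit in replicate 2, 156 bp away, ranked 20527 (6.01). Between this summit and tbg-1 lies the whole of rpac-19 (III:9629246-9629885), a gene for a subunit shared by RNA polymerases I and III, whose 5′ end was 170 bp from the summit. rpac-19 is on the same strand and ends 91 bp before tbg-1 begins. A low pooled peak inside a tbg-1 intron, 206 bp downstream, ranked 22762 (8.63) and its nearest summits in the replicate lists were 1107 bp away in replicate 1 and 951 bp away in replicate 2.

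Counts of tubulin genes with any summit were near those of other genes, whereas the signal at tba-2 was not. Near reproducible summits were 1 of 9 tubulin genes, while 1.76% of all protein-coding genes were. In the pooled list 6 of 9 tubulin genes had a summit within 1000 bp, against 53.0% of protein-coding genes. The same 6 genes had one in replicate 1 (53.3% of protein-coding genes) and 4 of 9 in replicate 2 (53.5%). Pooled summits with a partner within 100 bp in both replicates were near 2 of 9, tba-2 and tbb-1, against 9.71% of protein-coding genes. With so few members a single gene decides each of these shares, and the members were chosen with results of these data known, so none was tested. Among the protein-coding genes, 3 had a stronger pooled summit than tba-2 within 1000 bp, 625 a stronger one than tbg-1, 2361 than tbb-1, 2632 than tbb-2, 8141 than tbb-4 and 9342 than mec-12.

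By the strongest summit of each gene within 1000 bp, broadly expressed tubulin genes ranked above neuronal ones in the pooled list and in replicate 1. Within 2000 bp this order did not hold in the pooled list, though it did in replicate 1. A reproducible summit within 1000 bp was near 1 of the 4 broadly expressed genes and near 0 of the 3 neuronal genes. Pooled summits were near 3 of 4 and 2 of 3. The strongest pooled ranks were 3 for tba-2, 3851 for tbb-1 and 4417 for tbb-2, against 20030 for tbb-4 and 24596 for mec-12. In replicate 1 they were 4, 1445 and 1219 for the same broadly expressed genes, against 13844 and 13032 for the same neuronal genes. In replicate 2 they were 4, 22573 and 6295 for the broadly expressed genes, with no neuronal summit. These ranges of strongest ranks did not overlap in the pooled list or in replicate 1, but tba-1 and mec-7 had no value. The rank of tbb-1 in replicate 2 was lower than those of the neuronal genes in replicate 1. With all summits within 1000 bp counted, the groups overlapped in replicate 1, where further summits ranked 13668 at tbb-2 and 17097 at tba-2. The median distance to the nearest pooled summit was 260.5 bp for the broadly expressed genes and 208 bp for the neuronal genes, beside 892 bp for all protein-coding genes. To the nearest reproducible summit it was 1504.5 bp for the broadly expressed genes and 71134 bp for the neuronal genes, beside 148836 bp for all. Within 2000 bp of a reproducible summit were 3 of the 4 broadly expressed genes (tba-1, tba-2 and tbb-2), 0 of the 3 neuronal genes and 2.44% of protein-coding genes, and 2 of these 3 summits were the ones at cox-5B and in C36E8.4. Within that distance the ranks of the groups overlapped in the pooled list. The pooled summit at mec-12, of rank 705, stood above those at tbb-1 (3851), though below those at tba-1 (49), tba-2 (3) and tbb-2 (260). In replicate 1 the strongest ranks within 2000 bp were 77 (tba-1), 4 (tba-2), 1445 (tbb-1) and 649 (tbb-2). Those of the neuronal genes were 8196 (mec-12) and 13844 (tbb-4), and mec-7 had no summit there. In replicate 2 the strongest summits within 2000 bp were at rank 1386 for mec-12 and 6879 for mec-7, both above tbb-1 at 22573. Genes are not replicates of a condition, so the contrast is a description.

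**Figure D2:**
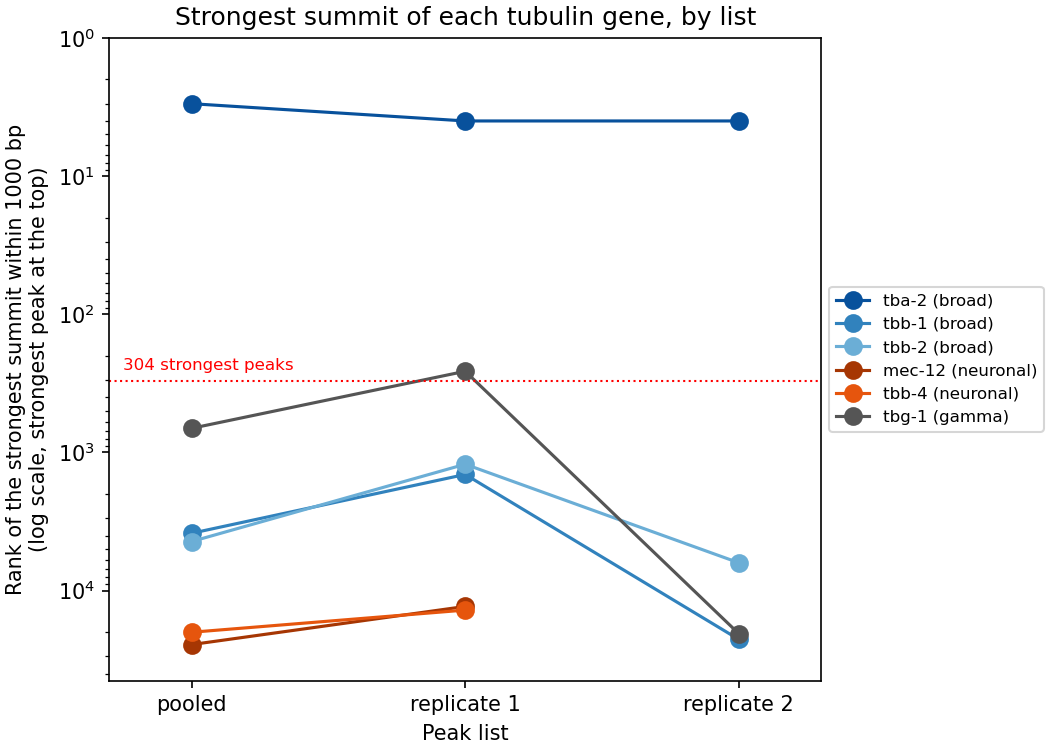
Rank of the strongest summit within 1000 bp of each tubulin gene (y axis, log scale, strongest at the top) in the pooled, replicate 1 and replicate 2 lists (x axis); blue lines are broadly expressed genes, orange lines neuronal genes and the grey line gamma-tubulin, and a missing point means no summit. tba-2 stays at ranks 3, 4 and 4, while tbg-1 passes the line of the 304 strongest peaks in replicate 1 and has rank 20527 in replicate 2.

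**Figure D3:**
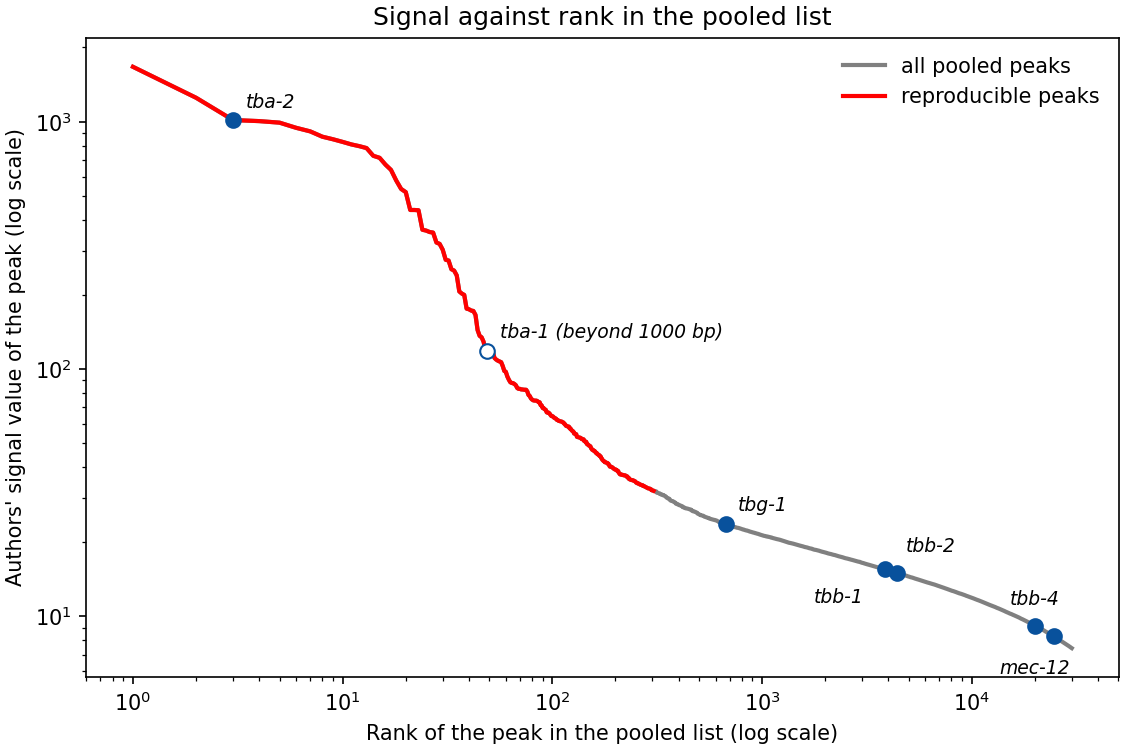
The authors' signal value (y axis, log scale) against rank (x axis, log scale) for all 30000 pooled peaks, with reproducible peaks in red; filled points are the strongest summit within 1000 bp of each tubulin gene and the open point is the peak 1084 bp from tba-1. tba-2 has a signal of 1016, and the other filled points (8.29 to 23.6) lie below the lowest reproducible signal, 32.2.

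The 6 tubulin windows at summits did not share a fixed word. Windows of 200 bp centred on each gene's strongest pooled summit were searched on both strands for 8 words. The tba-2 window held CCAAT in 2 copies, 24 and 30 bp from the summit on the gene side, and GAGAGA 74 bp on the other side. CCAAT is common: it was in 28.3% of windows at reproducible summits, 36.2% at other pooled summits and 32.2% of promoters. GAGAGA was in 35.9% of reproducible windows, 11.9% of other pooled windows and 16.3% of promoters. The tba-2 window did not hold ACCGTA, which was in 21.4% of reproducible windows (31 of the 50 strongest), 5.28% of other pooled windows and 5.67% of promoters, and none of the other promoter words GCGCAC and AGCGCG and TGCGTCTC. The word GCGCAC, in 22.7% of reproducible windows, 3.14% of other pooled windows and 4.08% of promoters, was in the tbb-1 window. The tbb-4 window held CCAAT, and those of tbb-2, tbg-1 and mec-12 held none of the 8. GC content was 42.5% at tba-2, 43.5% at tbb-1, 44.5% at tbb-2, 54.0% at tbb-4, 36.5% at tbg-1 and 27.5% at mec-12, beside means of 43.8% at reproducible and 34.8% at other pooled summits.

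The bases just before the annotated 5′ ends differed between tubulin genes, and this bears on what the distances mean. Many C. elegans transcripts are trans-spliced: a short leader replaces the original 5′ end at an acceptor site, so the annotated end is the acceptor and transcription starts farther upstream. The word TTTCAG, which matches the worm acceptor consensus and was chosen after the sequences were seen, stood directly before the most upstream 5′ end of 4 of 9 tubulin genes, tba-4, tbb-1, tbb-2 and tbb-4, and of 12.3% of protein-coding genes. The distance to the start of transcription was not measured for any of the 9 genes. The annotated 5′ UTR also differed: it was 0 bp at tbg-1, whose annotated end is the start codon, 2 to 12 bp at the 4 genes with TTTCAG, 13 bp at tba-1, 100 bp at mec-12, 123 bp at mec-7 and 189 bp at tba-2. The last 30 bases before the 5′ end are printed for all members except tba-1 and tba-2. They are from the RefSeq WBcel235 genome on the strand of each gene, with TTTCAG in capitals.
tbb-1: cgcacacccattatttccttcattTTTCAG
tbb-2: tagtttttcaattcattacgacctTTTCAG
tba-4: ttctgaacctaaatttctttcaatTTTCAG
tbb-4: tatctgtgaaataatatgattaaaTTTCAG
tbg-1: atcaaagattttctcaatccaaatctccag
mec-7: cgagatgtgactcctcccattattcgtctt
mec-12: cacggagagacgcagagaaggcacgtcttc

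Each 30 base stretch ends at the base before the annotated start: III:10742433-10742462 for tbb-1, III:4017628-4017657 for tbb-2, II:10918676-10918705 for tba-4, X:9436894-9436923 for tbb-4, III:9629155-9629184 for tbg-1, X:7776690-7776719 for mec-7 and III:3139235-3139264 for mec-12. The touch neuron genes mec-7 and mec-12 lacked TTTCAG at this place, as did tbg-1, tba-1 and tba-2. At tba-2 the pooled summit lay 140 bp upstream of an annotated end without this word.

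Other genes of microtubule biology were near reproducible summits in 1 of 8 lists, that of tubulin folding. Of 19 genes for prefoldin, chaperonin and tubulin cofactors, which fold new tubulin, 3 were near a reproducible summit (1.76% of protein-coding genes were). These were pfd-1, a prefoldin subunit gene (rank 10, signal 829, 328 bp from its 5′ end), and the chaperonin genes cct-1 (rank 59, 98.2, 256 bp) and cct-8 (rank 102, 63.5, 403 bp). At each of them another protein-coding gene had the nearer 5′ end, namely F01G4.6 (281 bp), mig-5 (164 bp) and Y55F3AR.2 (218 bp). Their ranks were 7, 95 and 177 in replicate 1, and 13, 48 and 107 in replicate 2. The 7 other tubulin genes (tba-5 to tba-9, tbb-6 and ben-1) had no reproducible summit, and 3 of them had a pooled one, the strongest at tba-7 (rank 2509, signal 17.2). The nearest replicate 1 summit was 2064 bp from the one at tba-7.

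No reproducible summit was near any of 12 genes of the gamma-tubulin complex and centrosome, 10 tubulin-modifying enzymes, 17 microtubule-associated proteins, 22 motor genes, 5 actin genes or 16 genes of the touch receptor neurons. Of all protein-coding genes, 1.76% were near a reproducible summit, so lists of 5 to 22 genes can easily hold none. Its absence therefore does not set these lists apart from other genes, and a difference was not tested. Pooled summits that both replicates matched within 100 bp were near 1, 1, 2, 4, 0 and 2 genes of these lists in the order given. Of protein-coding genes, 9.71% were near such a summit. Pooled summits of any kind were near 11, 6, 8, 17, 5 and 9 genes, beside 53.0% of protein-coding genes. The strongest in each were at spd-5, a centrosome scaffold gene (signal 25.1, 191 bp), ttll-5 (rank 5562, 14.1), the plus-end binding gene ebp-2 (rank 1043, 21.1), dnc-1, the large dynactin subunit (rank 1033, 21.1), act-2 (rank 1126, 20.7) and mec-9 (rank 1936, 18.2). These signals were above that of every pooled summit within 1000 bp of the neuronal tubulin genes and below that at tba-2. Each is the highest of its list, so this order is partly set by the choice and says nothing about the lists as a whole. Replicate 2 had no summit within 100 bp of those at spd-5, ttll-5 and act-2, its nearest being 112, 1773 and 110 bp away.

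**Figure D4:**
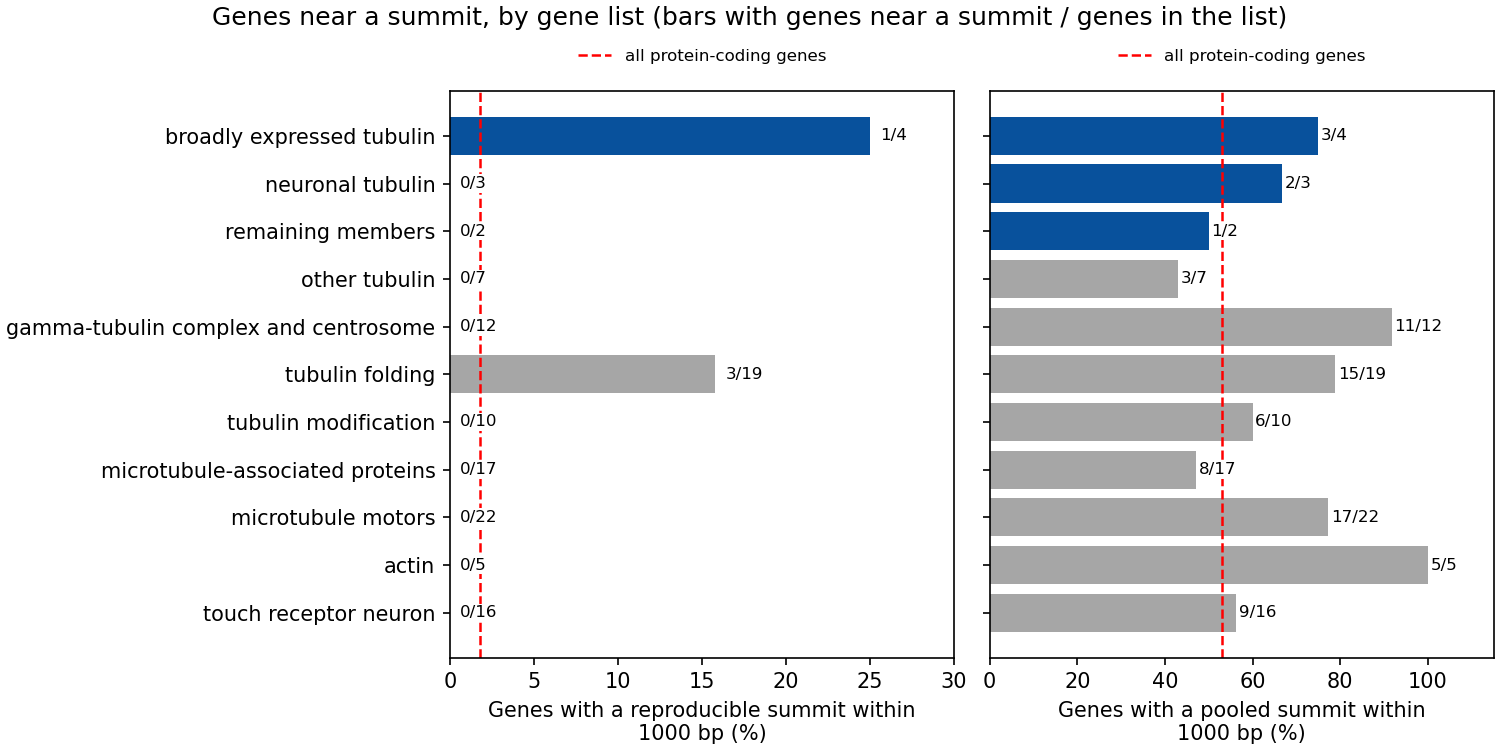
Share of genes (x axis, %) with a reproducible summit (left) or a pooled summit (right) within 1000 bp, for the 3 groups of tubulin members (blue) and 8 further gene lists (grey), with the number of genes beside each bar; red dashed lines give all protein-coding genes, at 1.76% and 53.0%. Bars above 0 on the left are those of the broadly expressed tubulin genes (1 of 4) and tubulin folding (3 of 19).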

How the data were processed

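Per the deposited text files, the authors made each replicate's list from its alignments and 1 control file, whose reads were not analysed here, and the pooled list from both replicates. Aligner and peak caller: not given in the sources used here. The deposited signal value of each peak is the authors' own, and the reproducible list is theirs, cut by IDR. Gene positions came from Ensembl annotation release 115 on WBcel235, the build called ce11 in the lists used, and sequences from the RefSeq copy of that build. All peaks ended inside its chromosomes, and the ce10 lists were not used. Summits were the start plus the last column of a list, written 1-based. A 5′ end is that of any transcript. Python 3.11.15, NumPy 2.4.6, pandas 2.3.3 and matplotlib 3.10.9 were used, and the counting was tested on simulated data. No test was made: there is 1 group, and the members, gene lists and words were chosen with earlier results of these data known. Named genes were all members, every listed gene near a reproducible summit or else the strongest pooled one of its list, other genes with a 5′ end within 1000 bp of a reproducible summit counted for a member within 2000 bp, and the neighbours in rank. Beyond this rule, genes next to members or at their weaker summits (rib-2, rpac-19, C36E8.10, C36E8.4) and genes with the nearer 5′ end at peaks of listed genes were named after their values were seen. fign-1 was on a list and is not used here. Alternatives were other distances, peak thresholds, assignments and windows, and leaving out each replicate.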

Additional observations from a re-analysis of the deposited data

How the results depend on the processing

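The count of 1 tubulin gene near a reproducible peak, tba-2, was the same within 500 and 200 bp, with 1 nearest protein-coding gene per peak, with the 152 strongest reproducible peaks, with the 608 strongest pooled peaks, with any base of the peak in place of its summit and with the most upstream 5′ end of each gene. Within 2000 bp it was 3 of 9 tubulin genes, and 3 of 4 broadly expressed ones, through tba-1 and tbb-2. With the 304 strongest peaks of a single replicate the count ranged from 1 (without replicate 1, beside 1.56% of protein-coding genes) to 2 (without replicate 2, beside 1.68%). The gene added without replicate 2 was tbg-1. The count of neuronal tubulin genes was 0 of 3 under each of these alternatives, beside the same low shares of all protein-coding genes. Of the word counts of single genes, 1 of 12 differed from the main window: tba-2 held 1 word in a 100 bp window. Of their strongest ranks, 9 of 22 moved by more than 1 SD of the ranks in both replicates. Where a replicate had no rank or the SD was 0, any change counted as a move. Without replicate 1, tbb-4 and mec-12 had no summit within 1000 bp, and these cases are not among the 22. The rank at tbg-1 was 22762 within 500 bp and 20527 without replicate 1. That at tbb-1 was 22573 without replicate 1. Within 2000 bp the rank at mec-12 was 705 and that at tbb-2 260. The unknown depth and the weak agreement of low ranks limit every statement about peaks outside the reproducible list.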
